A study of Mus musculus with 25 samples.

Results

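Insulin and insulin-like growth factors signal through a relay of receptors, adaptors and kinases, and 10 genes of that relay were followed through the DNA methylation of mouse mammary fat pads. They were the receptors Insr and Igf1r, the binding protein Igfbp6, the adaptors Irs1 and Irs2, the phosphoinositide 3-kinase subunits Pik3cd and Pik3r1, the kinases Akt1 and Akt2, and Rptor, the raptor subunit of mTOR complex 1. All CpGs that the authors assigned to these genes were taken wherever the average coverage reached 10 reads. This gave 398 of the 435 member CpGs in the deposited table, among 260376 of 283936 CpGs on chromosomes in the whole series. For a comparison, 3 mice of every group tested had to have a value, which left 187 member CpGs of 129217. Neighbouring tested CpGs of a gene, at least 3 with gaps of at most 200 bp, were also averaged into runs, and 23 of 15599 runs belonged to the 10 genes.

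Ligand-bound receptors phosphorylate the insulin receptor substrates, which recruit PI3K to the membrane. PI3K makes a lipid signal that activates Akt, and Akt acts on glucose uptake, on glycogen and lipid synthesis and, through the TSC proteins, on mTOR complex 1. In fat tissue this route stores nutrients, and calorie restriction is known to lower circulating insulin and IGF1. A CpG is a cytosine followed by a guanine, and its level here is the percentage of sequenced DNA copies with a methylated cytosine. CpG islands at gene starts are usually unmethylated, and CpGs in gene bodies are usually methylated.

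The samples were measured by reduced representation bisulfite sequencing (RRBS) of MspI fragments of 40 to 170 bp. All mice were wild-type C57BL/6N. The weight-loss groups first became obese on a 60% high-fat diet and then ate a Mediterranean-style diet restricted by 30% in calories (MCR, mice 85, 95 and 96), a low-fat diet restricted to the same degree (LFCR, mice 63, 67, 69 and 72), an unrestricted low-fat diet (LFD, mice 42, 47 and 48) or intermittent calorie restriction (ICR, mice 102, 103, 105, 106 and 112). A single mouse kept obese (Obese mouse 22) was described without a test. Control mice 1, 2, 5, 10 and 13 ate the control diet D12450J and were not made obese, so the weight-loss diets and the earlier obesity cannot be told apart in a comparison with them. All mice, Control included, received E0771 mammary cancer cells in a fat pad 25 weeks after the start of the diets, and DNA was taken from the pad on the other, uninjected side. The labels nevertheless also give the words tumor and mouse mammary cancer for every sample. They name no litter, cage or sequencing batch, and the fat pad is bulk tissue, so a changed mix of cells and a changed level within cells cannot be told apart.

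Average coverage over the member CpGs ran from 10.3 to 229 reads, with a median of 35.4 and quartiles of 18.9 and 58.6. No depth was given per library, so the counting error of a single value is unknown. The 4 libraries of LFD mouse 46 and Obese mice 27, 28 and 40 were left out by a choice made before the fits. They had mean levels of 48.1% to 51.2% at the 37 member CpGs under 5% in Control, where the other 21 libraries had 0.315% to 2.22%. Of the 211 member CpGs that could not be tested, 204 had fewer than 3 MCR values, and MCR mouse 95 had a value at 51.3% of member CpGs. The mean level over 95333 CpGs with a value in all 21 libraries was 46.5% to 47.2% in MCR, 46.5% to 54.5% in LFCR, 48.3% to 54.6% in LFD, 50.8% to 54.8% in ICR and 54.1% to 58.3% in Control. Within LFCR, mice 63 and 67 had means of 46.5% and 47.1% and mice 69 and 72 had 52.1% and 54.5%. LFD mouse 42 had 48.3%. The groups thus differed over the whole table, and the members' values below are set beside it. The MCR and Control means did not overlap. Where mice of MCR or another diet group do not overlap with Control at a run or CpG below, the share over the whole table with that trait is not given. For the tissue label, no adipocyte marker gene had measured CpGs near its start, and methylation shows no expression, so it was not checked.

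In MCR pads the pathway genes were mostly less methylated than in Control pads, in gene bodies and 1st exons, while a stretch of the Pik3cd body was more methylated. Of 187 member CpGs, 92 were lower and 9 higher in MCR at an adjusted p under 0.05 (limma). Over all 129217 CpGs 37.4% were called, 32.8% lower and 4.54% higher. The members' share was thus 54%, above the background, but neighbouring CpGs of a gene move together, and no test of that excess was made. The genes were also chosen with earlier results of these data known. An excess of members over the background, here or below, can therefore come from that choice. The median MCR minus Control difference was -14.8 percentage points over the members and -7.30 points over all CpGs tested. Of the 23 runs, 18 were lower and 1 higher in MCR, where 53.3% of all runs were lower and 6.35% higher, 59.6% in all. The median over member runs was -14.9 points, against -7.99 points over all runs.

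These counts depended on the scaling between libraries. After quantile normalisation, which gives each library the same distribution of levels, the median MCR difference over all CpGs was -0.200 points. On that scale 22 of 133 member CpGs were called, 16 lower and 6 higher, where 12.1% of all CpGs were lower and 11.4% higher. The member median was -3.25 points. Of 20 runs 6 remained called, 2 each in Akt1 and Irs2 and 1 in Pik3cd on the lower side and 1 in Pik3cd on the higher side, where 20.4% of all runs were lower and 17.7% higher. Counted in both directions, 23.4% of all CpGs and 38.2% of all runs were called on that scale, so the members' shares were not above the background. In LFCR the median over all CpGs was -0.0389 points after normalisation and -4.51 points without it.

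**Figure D1:**
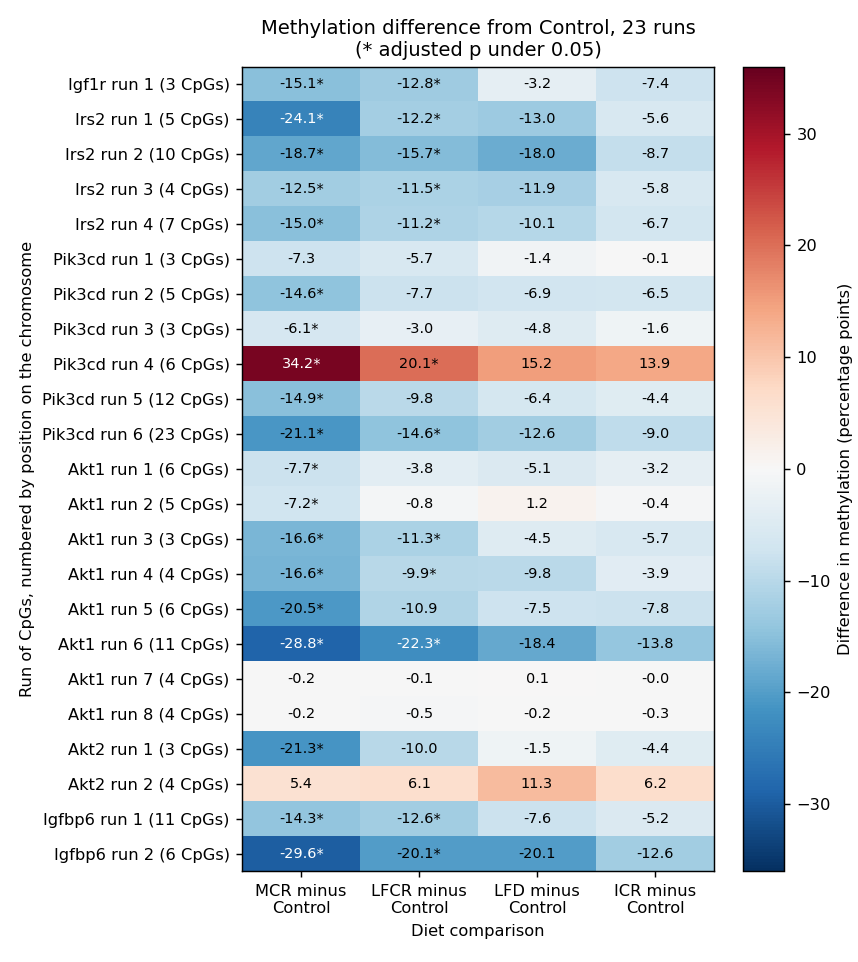
Difference in methylation from Control (percentage points, colour and printed value) for the 23 runs of CpGs of the 10 genes (rows, with the number of CpGs; runs numbered along the chromosome) in 4 diet comparisons (columns); stars mark adjusted p under 0.05. MCR has 18 starred lower runs and 1 starred higher run, at 34.2 points in Pik3cd, and the LFD and ICR columns have no star.

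Insr and Igf1r are the receptors of the relay, tyrosine kinases that bind insulin and IGF1. At Insr (chromosome 8) no CpG could be tested, as none of its 7 CpGs with enough coverage had a value in 3 MCR mice or in 3 Control mice. At position 3225442 in the gene body MCR mouse 96 had 20%. There the 4 ICR mice measured had 40.0% to 75.8%, and Control mice 5 and 13 had 66.7% and 73.9%. In the Insr island at position 3279151, in the 1st exon, MCR mice 85 and 96 had 0% and 5.00%, and Control mice 5 and 13 had 0%. No change at Insr can be read from so few mice.

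Igf1r was tested at 13 of its 72 covered CpGs, and 5 were lower and none higher in MCR. In its body run at chr7:67964925-67964970 (3 CpGs, in open sea, outside islands, shores and shelves) MCR mice had 68.3%, 64.4% and 68.0%. LFCR mice 63, 67, 69 and 72 had 71.8%, 62.2%, 71.9% and 71.1%. Control mice 2, 5, 10 and 13 had 84.8%, 78.4%, 83.0% and 82.0%, with no value in Control mouse 1. All MCR and LFCR mice lay below every measured Control mouse. Against Control the run differed by -15.1 points in MCR (SE 3.71, adjusted p = 0.00312) and -12.8 points in LFCR (SE 3.43, adjusted p = 0.0149). Near the Igf1r start, the island CpG at position 67952873 in the 1st exon had means of 0% in MCR and 0.568% in Control. The largest Igf1r difference was at position 68223565 in the body, with 10.4% in MCR and 47.6% in Control (-37.2 points, adjusted p = 0.012).

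Igfbp6 encodes a binding protein that prefers IGF2 over IGF1 and limits its action. It was the member with the highest share of lower CpGs, 13 of 17 tested in MCR and 9 of 17 in LFCR, with none higher. Its run in the 1st exon, chr15:102144457-102144715 (11 CpGs, 10 in the island and 1 in its shore), had 15.2%, 24.5% and 18.6% in MCR mice 85, 95 and 96. LFCR mice 63, 67, 69 and 72 had 21.1%, 14.4%, 23.3% and 25.6%. Control mice 1, 2, 5, 10 and 13 had 39.5%, 28.9%, 29.9%, 37.0% and 33.4%. No MCR or LFCR mouse reached the lowest Control mouse, and the differences were -14.3 points in MCR (SE 3.08, adjusted p = 0.00134) and -12.6 points in LFCR (SE 2.83, adjusted p = 0.0105). After quantile normalisation the run differed by -4.76 points in MCR (adjusted p = 0.218) and -6.06 points in LFCR (adjusted p = 0.12), and neither was called.

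Downstream in the Igfbp6 body, on the island shore at chr15:102145391-102145469 (6 CpGs), all 4 weight-loss groups lay apart from Control. MCR mice had 56.9%, 57.5% and 62.4%. LFCR mice had 63.5%, 65.7%, 68.6% and 76.0%, LFD mice 65.9%, 70.0% and 69.5%, and ICR mice 72.4%, 77.9%, 75.4%, 72.8% and 81.2%. Control mice 2, 5, 10 and 13 had 93.8%, 91.6%, 81.3% and 87.6%. Every mouse of the 4 weight-loss groups lay below every measured Control mouse, with no value in Control mouse 1. The nearest pair, ICR mouse 112 and Control mouse 10, were almost level at 81.2% and 81.3%. The share of all runs with such a separation is not given. The difference was -29.6 points in MCR (SE 3.21, adjusted p = 0.000354) and -20.1 points in LFCR (SE 2.97, adjusted p = 0.0104). It was -20.1 points in LFD (SE 3.21, adjusted p = 0.0509) and -12.6 points in ICR (SE 2.82, adjusted p = 0.243), neither past the threshold. Obese mouse 22 had 84.7%, within the Control range. At some other member runs it also lay within that range, and at some it lay below every Control mouse. In the Igfbp6 1st exon run it had 25.1%, where the lowest Control mouse had 28.9%. In the Irs2 run of 7 island CpGs it had 20.6%, where the lowest Control mouse had 23.9%.

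Irs1 and Irs2 are the docking proteins through which both receptors reach PI3K. Irs1 had 4 tested CpGs and no run. At position 82287663 of chromosome 1, in the 1st exon and an island shelf, MCR mice had 28.2%, 41.2% and 47.6%. Control mice 2, 5, 10 and 13 had 83.3%, 69.0%, 67.3% and 81.6%, all above the MCR mice. The difference was -36.3 points (SE 8.72, adjusted p = 0.00519), and in LFCR it was -23.6 points (adjusted p = 0.0618), short of the threshold. The Irs1 island CpGs at positions 82290379 and 82290479 stayed at group means of 1.57% and 0.766% in MCR and 2.10% and 3.75% in Control.

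Irs2 was tested at 32 CpGs along its 1st exon and body, and 16 were lower and none higher in MCR. Its first run in the body, chr8:11003522-11003814 (5 CpGs, shelf), had 34.0%, 33.2% and 35.3% in MCR mice. Control mice 1, 2, 5, 10 and 13 had 55.8%, 63.7%, 55.7%, 53.4% and 62.7%. The MCR mice were close to each other and lay below the lowest Control mouse, with a difference of -24.1 points (SE 4.87, adjusted p = 0.000966). LFCR mice 63, 67, 69 and 72 had 32.7%, 42.7%, 50.6% and 58.2%, so mouse 63 was at the MCR level and mouse 72 inside the Control range. The LFCR difference was -12.2 points (adjusted p = 0.0439). After quantile normalisation the run differed by -9.29 points in MCR (adjusted p = 0.0183) and by -2.34 points in LFCR (adjusted p = 0.587), where the call was lost. In the 1st exon island, chr8:11006955-11007180 (7 CpGs), MCR mice had 14.8%, 13.2% and 15.3%, and Control mice had 29.0%, 35.8%, 28.4%, 23.9% and 30.3%. That run differed by -15.0 points in MCR (SE 2.82, adjusted p = 0.000693) and -11.2 points in LFCR (SE 2.59, adjusted p = 0.0106), and both calls remained after quantile normalisation, at -6.04 and -5.29 points. With the 4 libraries that were left out added back, both were lost (adjusted p = 0.0593 in MCR and 0.174 in LFCR).

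The other Irs2 runs in the 1st exon were also lower. At chr8:11004625-11004788 (10 CpGs) the mean was 62.6% ± 6.41 in MCR (n = 3) and 81.4% ± 7.80 in Control (n = 5; SD), a difference of -18.7 points (adjusted p = 0.0180). At chr8:11005347-11005540 (4 CpGs) it was 57.1% ± 3.14 in MCR (n = 3) and 69.6% ± 3.86 in Control (n = 5; SD), a difference of -12.5 points (adjusted p = 0.0169). Both were sensitive to single mice. The run of 10 CpGs lost its call without MCR mouse 85, at -15.1 points (adjusted p = 0.0909). The run of 4 CpGs lost it without MCR mouse 85, at -11.8 points (adjusted p = 0.0551), or 95, at -11.4 points (adjusted p = 0.0613). Both also lost it after quantile normalisation, at -6.48 and -0.544 points. Nearer the start, 4 island CpGs of Irs2 between positions 11007538 and 11008456 had means of at most 1.85% in MCR and 1.25% in Control.

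**Figure D2:**
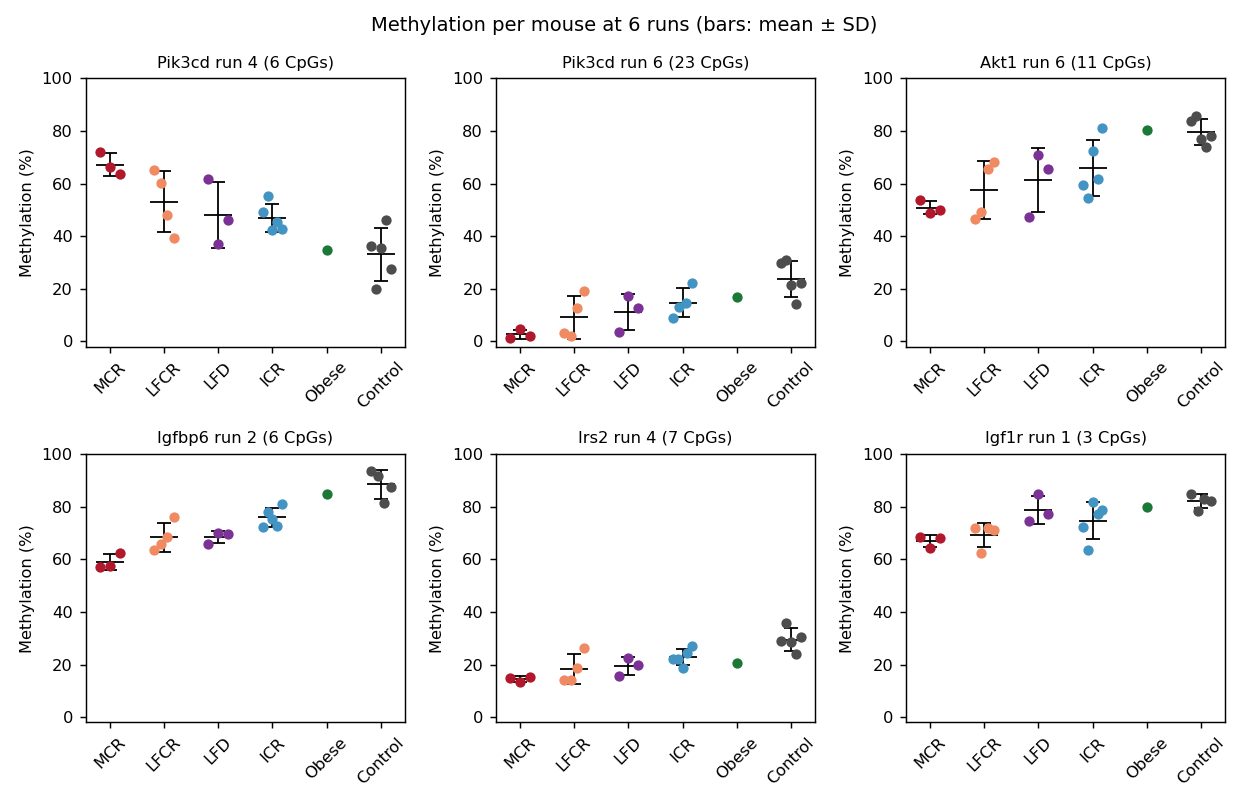
Methylation per mouse (percent) at 6 runs of 5 member genes, by group, with 1 point per mouse and bars for the mean ± SD. In the Pik3cd run of 6 CpGs the MCR mice sit at 63.6% to 72.0%, all above the Control mice at 19.8% to 46.1%, and in the other 5 runs all MCR mice sit below all Control mice. The 6 runs were picked from those called in MCR, and the share of all runs without overlap is not given.

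PI3K is a lipid kinase made of a catalytic and a regulatory subunit. Pik3cd encodes p110 delta, the catalytic subunit found mainly in leukocytes, and it was the only member with a run called higher. Of its 59 tested CpGs 30 were lower and 8 higher in MCR, with differences that spanned -46.5 to 46.3 points. The run that was higher, chr4:149658098-149658367, held 6 CpGs in an island shelf of the gene body. MCR mice 85, 95 and 96 had 72.0%, 66.1% and 63.6%. LFCR mice 63, 67, 69 and 72 had 65.1%, 60.1%, 48.2% and 39.4%, and LFD mice 42, 47 and 48 had 61.7%, 36.9% and 46.1%. ICR mice had 49.2%, 55.3%, 42.4%, 45.2% and 42.9%, and Control mice 1, 2, 5, 10 and 13 had 36.3%, 19.8%, 35.5%, 46.1% and 27.6%. MCR lay wholly above Control, LFCR mice 63 and 67 and LFD mouse 42 lay near MCR, and LFCR mouse 69 and ICR mice 102 and 103 lay between the MCR and Control mice. LFD mouse 48 was level with the highest Control mouse, and the other mice lay within the Control range.

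The MCR minus Control difference of this Pik3cd run was 34.2 points (SE 6.40, adjusted p = 0.000687), with group means of 67.3% ± 4.29 in MCR (n = 3) and 33.1% ± 9.91 in Control (n = 5; SD). In LFCR it was 20.1 points (SE 5.88, adjusted p = 0.0193). In LFD it was 15.2 points (adjusted p = 0.143) and in ICR 13.9 points (adjusted p = 0.249). All 6 CpGs were called singly in MCR, with differences of 21.8 to 46.3 points. After quantile normalisation the run stood at 44.0 points in MCR (adjusted p = 0.000939) and 26.0 points in LFCR (adjusted p = 0.0227). Obese mouse 22 had 34.7%, within the Control range.

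Further upstream in the gene, CpGs at an internal start of Pik3cd were lower. The run chr4:149675830-149676116 held 23 CpGs, from 259 bases downstream to 27 bases upstream of a start at 149676089 that RefSeq gives besides the first. MCR mice had 1.37%, 4.76% and 2.03%. LFCR mice 63, 67, 69 and 72 had 3.05%, 1.87%, 12.5% and 19.3%, and LFD mice 42, 47 and 48 had 3.64%, 17.2% and 12.9%. ICR mice 103, 105, 106 and 112 had 9.07%, 13.2%, 14.8% and 22.1%, and Control mice 1, 2, 5, 10 and 13 had 30.0%, 31.1%, 21.5%, 14.3% and 22.2%. The run was nearly unmethylated in all MCR mice, in LFCR mice 63 and 67 and in LFD mouse 42, and partly methylated in every Control mouse. The difference was -21.1 points in MCR (SE 4.52, adjusted p = 0.00143) and -14.6 points in LFCR (SE 4.15, adjusted p = 0.0180). After quantile normalisation, over its CpGs with a value in all 20 mice, it was -26.8 points in MCR (adjusted p = 0.0048) and -14.6 points in LFCR (adjusted p = 0.098).

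The 250 bases just upstream of this start are shown because they hold 16 measured CpGs, all lower in MCR than in Control. They lie at chr4:149676090-149676339 on the minus strand (GRCm38.p6, RefSeq) and are written 5′ to 3′, with the measured CpGs in capitals.
Pik3cd upstream of the internal start: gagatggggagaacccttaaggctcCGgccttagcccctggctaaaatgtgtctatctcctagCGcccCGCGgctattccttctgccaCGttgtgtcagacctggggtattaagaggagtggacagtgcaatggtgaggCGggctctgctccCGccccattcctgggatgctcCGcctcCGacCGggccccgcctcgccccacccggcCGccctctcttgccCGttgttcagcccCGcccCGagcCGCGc
Over these 16 CpGs the group means were 0% to 8.33% in MCR, 4.11% to 12.3% in LFCR, 2.67% to 20.8% in LFD, 3.36% to 17.97% in ICR and 8.64% to 36.2% in Control. Only 5 of the 16 had enough mice for the test, and at some CpGs MCR had a value in 1 mouse. The stretch holds 19 CpGs, where the median of 32851 such mouse windows is 6 and 19.7% of them have as many or more. It also holds 3 copies of CCGG, the site that MspI digests, which reads the same on both strands and occurs in 47.1% of the windows. The other 15 windows of the members, which cover 9 of the 10 genes together with this one, held measured CpGs in 1 case only, at Akt1.

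Of the remaining 4 Pik3cd runs, which lay nearer the gene end, 3 were lower in MCR. At chr4:149659752-149659990 (12 CpGs) the mean was 69.1% ± 5.16 in MCR (n = 3) and 84.0% ± 3.66 in Control (n = 5; SD), a difference of -14.9 points (adjusted p = 0.0109). At chr4:149653504-149653699 (5 CpGs) it was 62.8% ± 4.43 in MCR (n = 3) and 77.5% ± 5.88 in Control (n = 5; SD), a difference of -14.6 points (adjusted p = 0.00382). The run of 3 CpGs at 149655221 differed by -6.14 points (adjusted p = 0.0387). The run at 149652270 differed by -7.35 points and did not pass the test (adjusted p = 0.0919). In the first part of the gene, downstream of its first base at 149702566, single CpGs at 149700823 and 149696376 were higher in MCR. They had 77.5% and 53.5% in MCR against 37.4% and 21.5% in Control (adjusted p = 0.0459 and 0.0259). Gains and losses thus alternated along this gene.

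**Figure D3:**
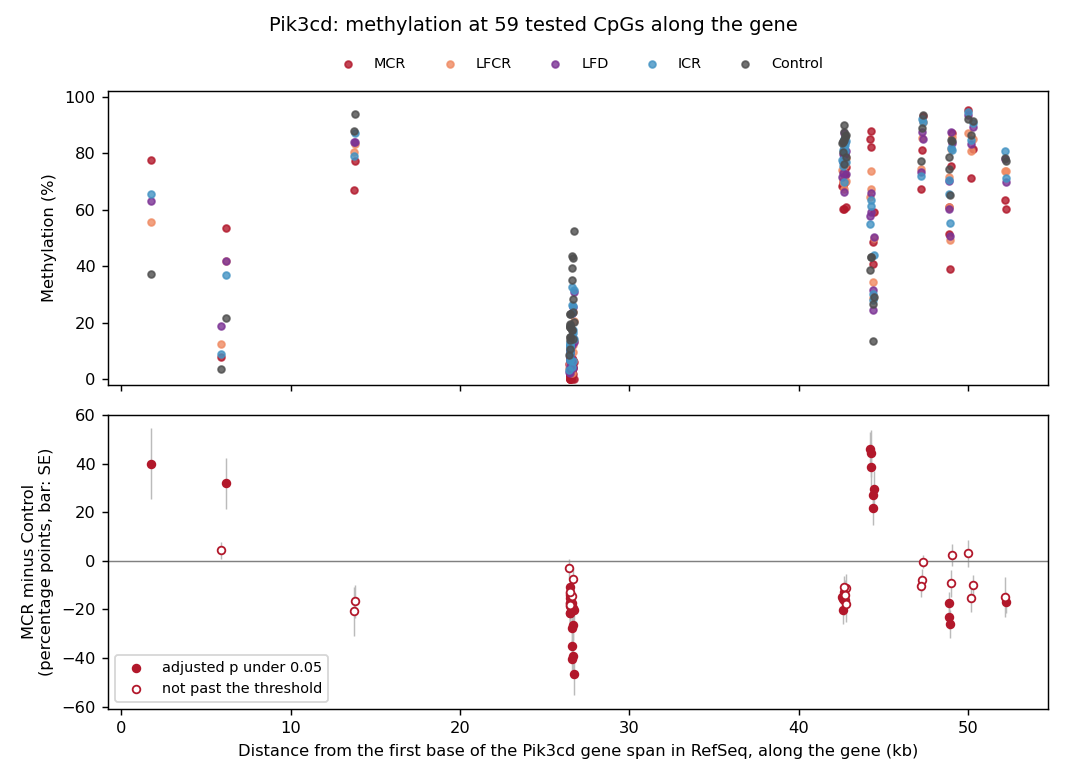
Methylation at the 59 tested CpGs of Pik3cd by distance from the first base of the gene (kb, x axis): group means in percent above, and MCR minus Control in percentage points with SE bars below (filled points: adjusted p under 0.05). CpGs at the internal start near 26 kb lie below 0 and those near 44 kb lie above 0, with differences that span -46.5 to 46.3 points.

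CpGs near the starts of leukocyte marker genes also differed in level between the groups, with no test made of the list. Over the 7 of 17 listed leukocyte genes with measured CpGs near the start, the mean level was 49.5% to 52.6% in MCR, 34.0% to 50.1% in LFCR, 32.4% to 49.8% in LFD, 35.1% to 44.6% in ICR and 27.9% to 41.1% in Control. Singly they went both ways, with Dok3 at 78.1% in MCR and 30.7% in Control, and Cd37 at 14.03% in MCR and 60.3% in Control. Over 4 of 10 luminal epithelial genes the mean was 24.2% to 25.9% in MCR and 38.9% to 61.4% in Control. Some Control mice lacked values at some listed genes, so the ranges of a list can cover unlike sets of genes. By gene, Krt7 had 31.4% in MCR and 62.0% in Control, and Cldn4 52.3% and 71.0%. Krt19 had 6.95% and 11.7%, and Cldn3 9.22% and 10.8%. Over 4 of 7 endothelial genes the mean was 45.8% to 59.5% in MCR and 43.1% to 55.0% in Control. Over 2 of 5 skeletal muscle genes it was 69.8% to 72.4% in MCR and 64.5% to 68.2% in Control. Both lists held genes that went opposite ways. Eng had 33.4% in MCR and 20.3% in Control, and Tie1 39.0% and 24.6%. Nos3 had 48.0% in MCR and 64.6% in Control, and Pecam1 84.3% and 91.9%. Myog had 85.0% in MCR and 67.7% in Control, and Ckm 57.7% and 65.8%. Of the fibroblast and basal epithelial lists 1 gene each was measured, Pdgfrb at 7.56% in MCR and 15.4% in Control and Oxtr at 19.5% in MCR and 19.1% in Control. The part of a changed cell mix in the Pik3cd differences, or in those of any member, was not tested.

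Pik3r1 encodes p85 alpha, the regulatory subunit that holds the catalytic subunits stable and inactive until the receptor substrates bind it. Its 2 tested CpGs, at positions 101767043 and 101768090 of chromosome 13, read 0% in every mouse tested of every group, apart from 1.33% in ICR mouse 112 at the second. The other 14 covered CpGs of Pik3r1 had too few mice, with medians of the group means of 41.3% in MCR and 42.0% in Control.

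Akt1 and Akt2 are the serine-threonine kinases that carry the PI3K signal, and Akt2 is the form most tied to insulin-driven glucose uptake. Of 51 tested Akt1 CpGs 24 were lower and none higher in MCR. The largest run difference lay at chr12:112671450-112671652 (11 CpGs, of which 8 annotated to a 1st exon, in an island shelf). MCR mice had 53.8%, 48.9% and 49.98%. LFCR mice 63, 67, 69 and 72 had 46.6%, 49.3%, 65.6% and 68.2%, and LFD mice 42, 47 and 48 had 47.5%, 70.7% and 65.7%. ICR mice had 59.3%, 54.5%, 72.6%, 61.9% and 81.1%, and Control mice 1, 2, 5, 10 and 13 had 83.7%, 85.8%, 77.0%, 73.9% and 78.2%. All MCR, LFCR and LFD mice lay below every Control mouse. In LFCR and LFD the same mice as at Pik3cd, 63, 67 and 42, were the low ones. The differences were -28.8 points in MCR (SE 6.34, adjusted p = 0.00151), -22.3 points in LFCR (SE 5.83, adjusted p = 0.0135), -18.4 points in LFD (SE 6.34, adjusted p = 0.102) and -13.8 points in ICR (SE 5.49, adjusted p = 0.249). The MCR and LFCR calls remained after quantile normalisation, at -15.8 and -13.9 points.

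Towards the 3′ end of Akt1, body runs were lower by smaller amounts. The run chr12:112663344-112663513 (4 CpGs) had 75.9%, 72.7% and 69.8% in MCR mice and 87.2%, 92.0%, 90.5%, 86.8% and 90.4% in Control mice. The groups did not overlap, and the difference was -16.6 points in MCR (SE 2.74, adjusted p = 0.00049) and -9.91 points in LFCR (SE 2.52, adjusted p = 0.0126). The run chr12:112661584-112661856 (3 CpGs) had means of 70.4% ± 8.04 in MCR (n = 3) and 87.0% ± 3.81 in Control (n = 5; SD), with differences of -16.6 points in MCR (adjusted p = 0.00219) and -11.3 points in LFCR (adjusted p = 0.0252). After quantile normalisation it lost both calls, at -6.27 points in MCR (adjusted p = 0.0618) and -4.82 points in LFCR (adjusted p = 0.152). The run of 4 CpGs kept its MCR call there, at -7.48 points (adjusted p = 0.00732), and lost that in LFCR, at -4.71 points (adjusted p = 0.0768). The run at 112665571 had 21.2% ± 4.07 in MCR (n = 3) and 41.7% ± 6.95 in Control (n = 5; SD), a difference of -20.5 points (adjusted p = 0.00613). Those at 112656545 and 112657086 differed by -7.68 and -7.19 points (adjusted p = 0.00129 and 0.0395). At the Akt1 start, the island and shore runs at 112673564 and 112674323 stayed at means of 0.138% and 0.400% in MCR and 0.359% and 0.631% in Control, with 95% intervals of the difference of -1.70 to 1.26 and -1.80 to 1.33 points.

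At Akt2 the body run chr7:27596911-27596982 (3 CpGs) had 24.1%, 26.4% and 31.4% in MCR mice and 58.95%, 47.3%, 38.1% and 49.9% in Control mice 2, 5, 10 and 13. The MCR mice lay below every measured Control mouse, a difference of -21.3 points (SE 5.67, adjusted p = 0.00546), while in LFCR the difference was -9.99 points (adjusted p = 0.142). A second body run, chr7:27602934-27603047 (4 CpGs), had means of 32.7% ± 7.25 in MCR (n = 3) and 27.2% ± 4.68 in Control (n = 5; SD). Its difference of 5.43 points (95% interval -7.46 to 18.3, adjusted p = 0.467) did not pass the test. Akt2 thus had 2 lower and 1 higher of 8 tested CpGs in MCR.

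Rptor encodes raptor, which brings substrates to mTOR complex 1. Of its 22 covered CpGs 1 could be tested, at position 119887225 of chromosome 11 in the gene body. MCR mice had 92.9%, 100% and 75%, and Control mice 1, 2, 5 and 13 had 87.5%, 92.7%, 96.7% and 97.2%. The groups overlapped and the difference of -4.23 points (SE 4.95, adjusted p = 0.546) did not pass the test. The other 21 had medians of 89.8% in MCR and 92.7% in Control.

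In LFCR pads fewer CpGs of these genes were called than in MCR pads, most of them lower and those higher in the Pik3cd body, and the calls rested on LFCR mice 63 and 67. Of 187 member CpGs 32 were lower and 3 higher, where 12.1% of all CpGs were lower and 1.48% higher, 13.5% in all. Of 23 runs 11 were lower and 1 higher, where 31.9% of all runs were lower and 3.55% higher, 35.5% in all. The median difference was -9.40 points over member CpGs and -4.51 points over all CpGs. By gene, the lower CpGs were 9 in Akt1, 9 in Igfbp6, 8 in Irs2, 5 in Pik3cd and 1 in Igf1r, and the 3 higher ones were in Pik3cd. After quantile normalisation 8 of 133 CpGs were called, 5 lower and 3 higher, where 3.1% of all CpGs were lower and 2.66% higher. Of 20 runs 3 were called, 1 lower run each in Akt1 and Irs2 and the higher run in Pik3cd, where 10.1% of all runs were lower and 8.84% higher. With the 4 libraries added back, the Pik3cd runs of 6 and 23 CpGs and all 4 Irs2 runs lost their LFCR calls, with adjusted p of 0.0578 to 0.178.

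Without LFCR mouse 63, or without LFCR mouse 67, 1 member CpG and 0 runs were called in LFCR. Each of the 12 run calls was lost without either of these mice, and 6 were also lost without at least 1 of the Control mice. Without LFCR mouse 72 the calls were 74 CpGs and 16 runs. Without Control mouse 2 they were 3 CpGs and 6 runs, and without Control mouse 1 or 13 they were 18 or 20 CpGs, with 10 runs each. Shares over all CpGs and runs are not given for these fits, so the counts cannot be set against the background. LFCR mice 63 and 67 were also the mice of lowest mean methylation in their group, at 46.5% and 47.1%. The part of that library-wide level in the calls was not tested. LFCR and MCR used the same degree of restriction on different foods, and no member CpG or run was called between them, where 0.0101% of all CpGs (0.00774% lower and 0.00232% higher) and 0% of all runs were. At an unadjusted p under 0.05 there were 19 member CpGs (10.2%) and 5 runs (21.7%), against 10.8% of all CpGs and 12.4% of all runs. The 95% interval of the MCR minus LFCR difference was -20.6 to 7.48 points at the Akt1 run of 11 CpGs, -0.0882 to 28.2 points at the higher Pik3cd run and -16.3 to -2.68 points at the Igfbp6 shore run.

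In LFD and ICR pads no member CpG or run was called against Control (limma), where 0% of all CpGs, and 0.00641% of all runs in LFD and 0% in ICR, were called. At an unadjusted p under 0.05 there were 67 member CpGs (35.8%) and 11 runs (47.8%) in LFD, against 18.9% of all CpGs and 27.8% of all runs. In ICR there were 30 member CpGs (16%) and 7 runs (30.4%), against 12.8% of all CpGs and 18.2% of all runs. The median difference over member CpGs was -7.23 points in LFD and -5.49 points in ICR, against -3.07 and -2.11 points over all CpGs. LFD mouse 42 had the lowest value of its group in several runs, such as 49.2% at the Irs2 run of 10 CpGs, where LFD mice 47 and 48 had 71.4% and 69.7%. Without LFD mouse 47, 6 runs were called lower, and without Control mouse 10, 1 run was. No share over all runs is given for these fits, so these counts cannot be set against the background. At the Irs2 island run the ICR mice had 18.7% to 26.9%, against 23.9% to 35.8% in Control mice. Between the diets, no member CpG or run was called in LFCR against LFD or in ICR against LFCR, where 0% of all CpGs and runs were. With no adjustment, p was under 0.05 at 5 member CpGs (2.67%) and 1 run in LFCR against LFD, where it was at 5.24% of all CpGs and 5.64% of all runs. In ICR against LFCR it was so at 14 member CpGs (7.49%) and 3 runs (13%), and at 7.9% of all CpGs and 10.6% of all runs. The diet groups share their Control mice, so their differences from Control are not independent of each other.

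The differences varied with the level in Control, over the members and over all CpGs. At the 24 member CpGs under 10% in Control none was called in MCR, where 1.35% of all such CpGs were lower and 3.51% higher. At 56 CpGs of 10% to 50%, 32 were lower and 9 higher, where 29.1% of all such CpGs were lower and 13.2% higher. All 9 higher member CpGs lay in this class. At 36 CpGs of 50% to 80%, 26 were lower, where 52.8% of all were. At 71 CpGs of 80% and over, 34 were lower, where 35.8% of all were. The members' median difference in MCR was -15.2, -22.6 and -13.9 points in the classes of 10% to 50%, 50% to 80% and 80% and over, against -6.28, -18.2 and -8.97 points over all CpGs.

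**Figure D4:**
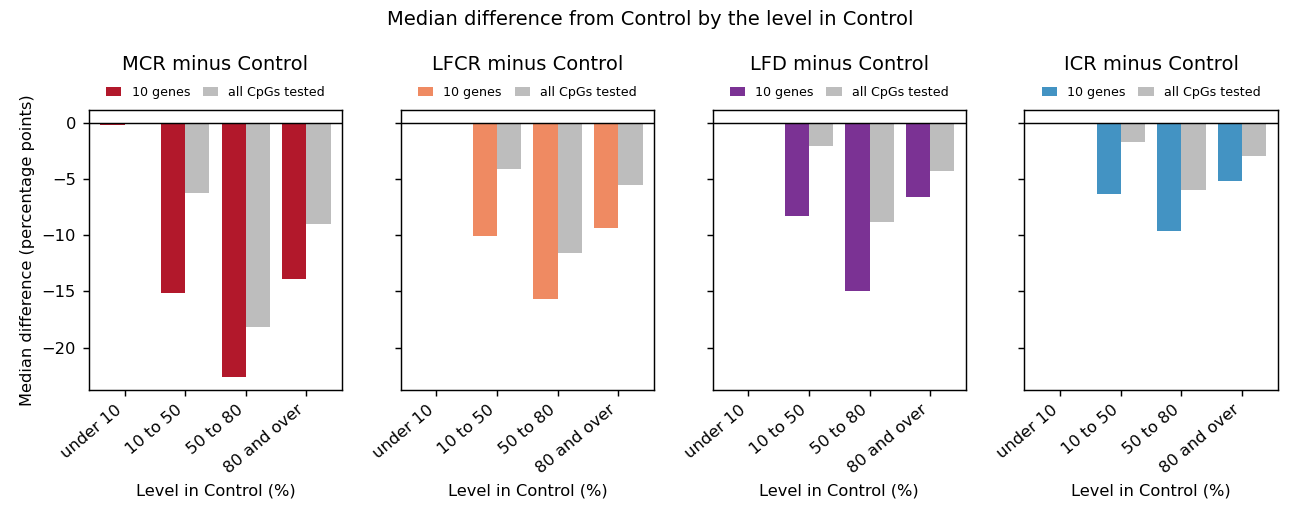
Median difference from Control (percentage points) for member CpGs (coloured bars) and all tested CpGs (grey bars) by their level in Control (percent), in 1 panel for each diet. In MCR the members' medians were -15.2, -22.6 and -13.9 points in the upper 3 classes, each lower than that of all CpGs, and close to 0 at CpGs under 10%. The classes use the same Control mice as the differences.

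By position, 11 of 32 member CpGs in islands, 13 of 28 in shores, 20 of 41 in shelves and 48 of 86 in open sea were lower in MCR. Over all CpGs tested the shares lower were 21%, 32.5%, 41.9% and 36.6% in these classes. All 11 lower island CpGs were in the 1st exons of Igfbp6 and Irs2. The tested island and shore CpGs of Igf1r, Irs1 and Pik3r1 had means of at most 1.57% in MCR and 3.75% in Control. Of the 9 higher CpGs 8 lay in shelves and 1 in open sea.

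With at least 2 mice per group in place of 3, a rule added after the data were seen, 295 member CpGs and 37 runs could be tested, and 24 runs were called in MCR, 22 lower and 2 higher. Under that rule 50.2% of all 23637 runs were called, 45% lower and 5.13% higher. The 1st exon of Irs1 then had a run of 8 CpGs, chr1:82287602-82287891, with 29.4% and 37.7% in MCR mice 85 and 96 and 71.8%, 62.3%, 62.2% and 68.6% in Control mice 2, 5, 10 and 13. Its difference was -32.6 points (adjusted p = 0.0131). A run of 6 CpGs in the last part of Igf1r, chr7:68223503-68223667, had 20.6% and 15.4% in those MCR mice and 65.9%, 56.2%, 43.0% and 57.9% in those Control mice. Its difference was -37.8 points (adjusted p = 0.00963). In the first part of Pik3cd, downstream of its first base at 149702566 and of a start at 149698708, the run chr4:149696303-149696723 (12 CpGs) was higher. It had 35.3% and 38.3% in the 2 MCR mice and 8.84%, 8.31%, 13.0%, 23.8% and 12.1% in Control mice 1, 2, 5, 10 and 13. Its difference was 23.6 points in MCR (adjusted p = 0.00788) and 17.2 points in LFCR (adjusted p = 0.0295). These runs rest on 2 MCR mice each.

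A wider list of 85 other genes of insulin, PI3K, Akt and mTOR signalling had 94 runs in 38 genes, of which 48 were lower and 10 higher in MCR. That is 51.1% lower and 10.6% higher, against 53.3% and 6.35% over all runs, so the share of lower runs was near the background. Their median difference was -6.53 points. In LFCR 30 were lower and 6 higher, 31.9% and 6.38% of the list, against 31.9% and 3.55% over all runs. In LFD and ICR none was called. By gene, 25 had a lower run, 8 a higher run and 6 of these had both.

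Among the 15 pathway genes with the largest called MCR difference (adjusted p of 0.000473 to 0.0274), the adaptors Irs3, Shc1 and Sh2b2 had lower runs. These 15 were picked by that difference, so no trend of a class of genes can be read from them. The adaptor Grb10, outside the 15, had 1 lower run of 5. Irs3, an insulin receptor substrate of rodents, had 39.5% ± 2.38 in MCR (n = 3) and 71.6% ± 4.62 in Control (n = 5), here and below with the SD. Shc1, which links receptors to Ras, had 9.43% ± 2.92 in MCR and 38.4% ± 5.96 in Control, and the adaptor Sh2b2 had 35.3% in MCR and 70.9% in Control. Pik3r2, which encodes the regulatory subunit p85 beta, had 13.1% ± 4.23 in MCR and 46.3% ± 5.56 in Control in the lowest of its 3 runs, of which 2 were lower and 1 higher. The genes of the lipid phosphatases SHIP2 and SHIP1 went opposite ways, with Inppl1 at 40.1% in MCR and 71.5% in Control and Inpp5d, which is also on the leukocyte list, at 53.8% in MCR and 19.2% in Control (3 mice each). Ptpn1, a phosphatase of the insulin receptor, had a lower run (60.6% in MCR and 86.9% in Control) and another that was higher by 21.7 points.

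Igf2, an imprinted growth factor gene, had 34.0% in MCR and 56.5% in Control in its run of largest difference, and another of its 6 runs was higher by 5.01 points. Of genes around mTOR and AMPK, Prr5 of mTOR complex 2 had 52.8% ± 0.834 in MCR and 82.6% ± 4.15 in Control, and 8 of its 10 runs were lower. The arginine sensor Castor1 had 12.8% in MCR and 38.7% in Control in a lower run and 53.6% in MCR and 44.9% in Control in a higher one, and the AMPK subunit Prkab1 had 8.19% in MCR and 33.0% in Control. Of downstream targets, Slc2a4, the insulin-responsive glucose transporter GLUT4, had 56.8% ± 3.62 in MCR and 82.6% ± 6.63 in Control. Glycogen synthase Gys1 had 28.5% in MCR and 51.3% in Control at a run it shares with Ruvbl2, and the lipid synthesis regulator Srebf1 had 58.9% in MCR and 80.8% in Control. Rps6ka1, a ribosomal S6 kinase, had 4 lower and 2 higher runs among 7, and its run of largest difference was higher by 42.2 points, with 69.2% ± 1.83 in MCR and 27.0% ± 9.46 in Control, at CpGs it shares with Gm12977.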

How the data were processed

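DNA methylation was measured by RRBS in 25 contralateral mouse mammary fat pads. Per the submitters' processing notes, reads were processed with Bismark on mm10; versions and read filters are not given in the sources used here. The authors deposited the methylated fraction of reads per CpG and library, and the average coverage over 21 libraries, which times 21 was whole at 100% of CpGs (tolerance 1e-06). Read numbers per library are not in these columns, so no counting interval was computed.

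From these values, levels in percent of 20 mice were fitted in a single group model (limma 3.58.1 in R 4.3.3), with two-sided moderated tests, Benjamini-Hochberg adjustment over all CpGs or runs, and calls at adjusted p under 0.05. A mouse needed values at a share of at least 0.5 of a run's CpGs. Its run level was the average of the group means over all CpGs of the run, plus its mean departure from that average at the CpGs it had. With all CpGs measured this is the plain mean. For a mouse that lacked some, the level is an adjusted estimate. P-values measure the spread between these mice. The genes, lists, comparisons and named runs were chosen with earlier results of these data known: per member, the called MCR run of largest difference in each direction and runs called in another comparison were given per mouse or as means, or else its CpG of smallest p, and of the wider list the 15 genes of largest called difference. Other runs and CpGs were named after their values were seen. CpGs shared by several genes were counted for each. Sequences came from RefSeq windows of GRCm38.p6. The alternatives were other coverage minima, run settings, an arcsine scale, quantile normalisation, a minimum difference, the 4 libraries added back, each mouse left out, and the rule of 2 mice, which was chosen after seeing the data. The fits were tested on simulated data with normal noise and no library-wide shift between groups. That test therefore does not cover the shift in mean level seen between these libraries.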

Additional observations from a re-analysis of the deposited data

Results flagged for a closer look

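Among 39 groups of mice checked for a mouse that stood apart, 2 were found. Chance gives about 1 group in 20, so this is about the number that chance gives. The same mice recur over the runs, so the groups are not independent. At the Akt1 run of 4 CpGs at 112663344, LFCR mouse 63 had 74.3%, below the other LFCR mice at 80.6% to 81.8%. At the Igf1r run at 67964925, LFCR mouse 67 had 62.2%, below the other LFCR mice at 71.1% to 71.9%. Both mice also had the lowest mean methylation of their group over the whole table.

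The 4 libraries that were left out had methylation at member CpGs where all others had almost none. At the 37 member CpGs under 5% in Control, LFD mouse 46 had a mean of 50.8%, Obese mouse 27 had 51.2%, Obese mouse 28 had 50.8% and Obese mouse 40 had 48.1%. The other 21 libraries had 0.315% to 2.22% there.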

How the results depend on the processing

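Over all alternatives, 206 counts of called member CpGs or runs stayed within 1.5 times the reported count and 22 did not. Of the differences of named runs, 345 kept their side of the threshold, 60 lost their call and none changed direction. These tallies say little about stability. Many of the counts were 0 in the main fit, in LFD, in ICR and between diets, and a coverage minimum of 5 changed no member count or difference. All MCR and LFCR counts moved after quantile normalisation and with the 4 libraries added back. After quantile normalisation the calls were 22 CpGs and 6 runs in MCR and 8 CpGs and 3 runs in LFCR. That alternative kept 133 member CpGs, since it needs a value in all 20 mice, and has no value for the runs of Igf1r, Akt2 at 27596911 and Igfbp6 at 102145391. With the 4 libraries added back, on 124 member CpGs, the calls were 47 CpGs and 10 runs in MCR and 5 CpGs and 3 runs in LFCR, where 28% of all CpGs and 46.4% of all runs were called in MCR and 3.01% and 19.1% in LFCR. In LFD 1 run was called with a coverage minimum of 20, with at least 5 CpGs per run, and with gaps of up to 500 bp. Leaving out 1 mouse at a time gave 76 to 103 CpGs and 17 to 19 runs in MCR, 1 to 74 CpGs and 0 to 16 runs in LFCR, and 0 to 6 runs in LFD. These counts have no share over all CpGs and runs beside them. The lowest LFCR counts were without LFCR mouse 63 or 67 and the highest without mouse 72. No member CpG was called in LFD, and no member CpG or run in ICR or between diets, with any mouse left out. With a value in 2 mice per group as the rule, a choice made after seeing the data, the calls were 123 of 295 CpGs in MCR and 34 in LFCR, and 24 and 11 of 37 runs, where 28.2% and 7.23% of all CpGs and 50.2% and 24.4% of all runs were called. No paired analysis was possible because the groups share no mouse numbers. Other than by the fewer CpGs and mice that an alternative keeps, the cause of these changes was not tested. Depth per library is unknown. The 211 member CpGs without enough mice were mostly short of MCR values, and those of Insr also of Control values. Insr, Rptor and Pik3r1 were thus barely covered.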
